A study of Mus musculus with 6 samples.

Results

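De novo lipogenesis makes fatty acids from carbohydrate carbon, and 10 of its genes were followed here by name among the 54532 genes of the deposited table. They were the enzyme genes Acly, Acaca, Acacb, Fasn, Elovl6, Scd1 and Scd2 and the regulator genes Srebf1, Mlxipl and Thrsp. All 10 were present and all 10 passed the filter on low counts that left 16623 genes for testing. The tissue was inguinal white adipose tissue, the subcutaneous fat pad of the groin. It came from control mice with floxed Cdo1 (labelled Cdo1flox/flox in the study and WT in the genotype field) and from Cdo1AKO mice, in which Cdo1 was knocked out in adipose tissue. Cdo1 encodes cysteine dioxygenase, which oxidises cysteine on the way to taurine. All mice went on high-fat feeding at 8 weeks of age and stayed on it for 15 weeks, and each group had 3 libraries. The driver of the deletion, the floxed exons, sex and strain are not given in the sources used here. Whether each library is its own animal is not stated, so the p-values describe the spread between these libraries only, which may be technical.

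In the cytosol ATP citrate lyase (Acly) splits citrate into acetyl-CoA. Acetyl-CoA carboxylase turns it into malonyl-CoA, and fatty acid synthase (Fasn) builds palmitate from malonyl-CoA with reducing power from NADPH. Elovl6 lengthens palmitate to stearate, and the stearoyl-CoA desaturases Scd1 and Scd2 place a double bond in the product. The transcription factors SREBP-1 (Srebf1) and ChREBP (Mlxipl) drive these genes in response to insulin and glucose. Thrsp, or Spot 14, is a small protein of lipogenic tissues that responds to thyroid hormone. White fat uses the route at a modest rate, and a high-fat diet is known to lower it further.

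Libraries held 16275184 to 19205804 counts. Cdo1, the check of the labels, is given first, in CPM (counts brought to a common library size, with library sizes scaled by TMM). The controls 1 to 3 stood at 887, 432 and 631 CPM, and the Cdo1AKO libraries 1 to 3 at 123, 392 and 134 CPM. The groups did not overlap, although Cdo1AKO 2 came close to control 2. The libraries also stood apart in another way. The median of 12 lymph node and B cell markers was near 0 in control 1 (0.0614 CPM) and Cdo1AKO 2 (0.418 CPM), and it was 54.6 to 110.5 CPM in the other 4. Cdo1AKO 1 and 3 were much more alike than other pairs. Their counts differed by 5.21 times the sampling variance per gene, against 177 and 184 times for Cdo1AKO 2 with either of them and 20.9 to 73.8 times between controls. Results below are therefore given by library and, where it matters, without Cdo1AKO 2. The adipocyte identity of the tissue was clear: Adipoq, Plin1, Fabp4 and the other genes of a list of 10 adipocyte markers were all detected, with a summed level of 38428 to 58476 CPM in controls.

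The 10 genes did not move as one block. Both carboxylase genes and both transcription factor genes were lower in every Cdo1AKO library than in every control. Scd2 was higher in every Cdo1AKO library, and Scd1 differed little. Fasn was near 10 times as high in Cdo1AKO 2 as in the other Cdo1AKO libraries, which lay below the controls. By edgeR's quasi-likelihood test with Benjamini-Hochberg adjustment, 0 of the 10 genes passed an adjusted p of 0.05, as did 0 of all 16623 genes (0%). At an unadjusted p under 0.05, 4 of the 10 were lower and 1 was higher, against 5.71% lower and 4.66% higher over all genes tested. The groups did not overlap for 4 lower genes and 1 higher gene of the 10, against backgrounds of 9.73% and 8.87%. Other tools differed. DESeq2 called 2 of the 10, both lower, and gave no adjusted p for Fasn and Scd2. Its background, over the 18284 genes with an adjusted p, was 0.968% lower and 1.48% in either direction. By limma-voom 0 of the 10 were called. The median log2 fold change was -0.33 for the 10 genes and 0.058 for all genes tested, and without Cdo1AKO 2 these were -0.60 and 0.012.

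**Figure D1:**
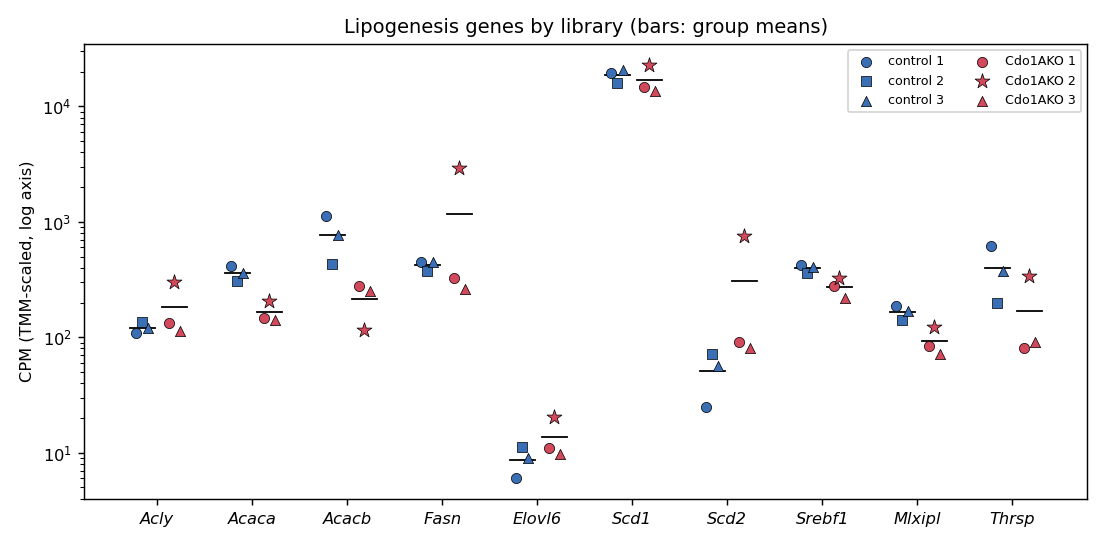
CPM on a log axis for the 10 genes in each of the 6 libraries, with blue symbols for control, red symbols for Cdo1AKO (a star for Cdo1AKO 2) and a bar at each group mean. Acaca, Acacb, Srebf1 and Mlxipl show red below blue without overlap, while Fasn and Scd2 stand at 2936 and 747 CPM in Cdo1AKO 2.

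Levels of different genes were compared per length, in TPM (counts per length, brought to a common total), computed from the counts and the listed gene lengths. In controls Scd1 stood far above the rest at a mean of 11384 TPM (range 10449 to 12736, n = 3). It alone took 1.65% to 2.01% of all counts of a control library. Thrsp (mean 523 TPM, range 291 to 772), Acacb (231 TPM, 144 to 314) and Srebf1 (207 TPM, 202 to 215) came next. Neighbours in that order overlapped over the 3 controls, Thrsp with Acacb and Acacb with Srebf1. Fasn (115 TPM, 109.8 to 122) lay below all of these in every control. Mlxipl (87.9 TPM, 81.2 to 91.4), Acly (68.4 TPM, 55.7 to 81.6) and Acaca (61.7 TPM, 56.8 to 65.7) followed, again with overlapping neighbours. The place of Acaca depends on its listed length of 17074 bases, that of all its annotated exons (Acacb has 9632). Without division by length its control mean was 359 CPM, above Mlxipl (166 CPM) and Acly (122 CPM). Scd2 (28.2 TPM, 12.3 to 41.4) and Elovl6 (4.06 TPM, 2.54 to 5.50) were lowest, without overlap with the gene above. Acacb, which encodes the carboxylase of the mitochondrial surface, thus exceeded Acaca, which encodes the cytosolic enzyme, in every control. In the order of the Cdo1AKO means Fasn stood at place 2, Scd2 at 4 and Acacb at 7. These places rest on Cdo1AKO 2: by the mean of Cdo1AKO 1 and 3 alone Fasn stood at place 5 as in controls, Scd2 at 7 (9 in controls) and Acacb at 4 (3 in controls). Cdo1AKO 2 held Fasn at 699 TPM and Scd2 at 357 TPM, against at most 103 and 57.8 TPM in the other Cdo1AKO libraries.

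The bases just before the start sites are shown for genes on either side of this split: Fasn and Acly, both highest in Cdo1AKO 2, and Acacb and Mlxipl, lower in every Cdo1AKO library. Each run is 250 bases, 5′ to 3′ on the gene's own strand, from RefSeq on build GRCm38.p6, the assembly called mm10, ending at the base before the start site. The table held 8 of the 10 genes. Mlxipl has more than 1 start site in it, and the gene-level counts do not say which was used. The listed start site of Acacb, at 114165518, lies inside the counted gene, which begins at 114146535. The bases before that outer end of Acacb are not shown.
Fasn, chr11:120824548-120824797, minus strand: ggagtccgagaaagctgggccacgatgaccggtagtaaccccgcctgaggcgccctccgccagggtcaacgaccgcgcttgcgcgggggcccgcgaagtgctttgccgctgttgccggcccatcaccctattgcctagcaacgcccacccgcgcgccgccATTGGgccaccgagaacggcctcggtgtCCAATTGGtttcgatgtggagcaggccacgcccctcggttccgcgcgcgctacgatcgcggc
Acly, chr11:100528001-100528250, minus strand: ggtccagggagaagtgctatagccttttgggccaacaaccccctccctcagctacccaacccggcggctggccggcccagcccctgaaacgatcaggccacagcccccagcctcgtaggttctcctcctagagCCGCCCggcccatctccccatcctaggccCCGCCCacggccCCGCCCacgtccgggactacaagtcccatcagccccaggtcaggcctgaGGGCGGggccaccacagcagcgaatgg
Acacb, chr5:114165268-114165517, plus strand: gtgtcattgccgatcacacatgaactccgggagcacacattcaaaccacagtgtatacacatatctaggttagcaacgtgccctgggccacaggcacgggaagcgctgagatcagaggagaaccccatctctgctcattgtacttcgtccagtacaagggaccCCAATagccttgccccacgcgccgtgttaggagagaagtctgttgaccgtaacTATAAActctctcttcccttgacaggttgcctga
Mlxipl, upstream start, chr5:135089640-135089889, plus strand: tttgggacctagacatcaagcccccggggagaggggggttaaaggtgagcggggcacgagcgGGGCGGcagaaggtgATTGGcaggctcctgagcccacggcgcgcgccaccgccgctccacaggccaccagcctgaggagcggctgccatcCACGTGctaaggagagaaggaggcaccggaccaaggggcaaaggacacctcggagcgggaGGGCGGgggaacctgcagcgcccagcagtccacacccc
Mlxipl, downstream start, chr5:135106641-135106890, plus strand: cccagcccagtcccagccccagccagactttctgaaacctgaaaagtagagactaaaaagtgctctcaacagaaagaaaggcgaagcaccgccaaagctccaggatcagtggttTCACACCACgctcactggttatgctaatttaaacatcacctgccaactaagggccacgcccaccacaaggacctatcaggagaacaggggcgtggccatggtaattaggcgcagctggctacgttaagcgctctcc
Capitals mark matches on either strand to the letters searched. These were CCAAT (bound by NF-Y, a common partner of SREBP-1), GGGCGG (Sp1), CACGTG (an E-box, the unit of carbohydrate response elements), TCACNCCAC (a sterol regulatory element), TATAAA (the TATA box), the longer sterol element of the LDL receptor promoter, which overlaps TCACNCCAC, and the direct-repeat element of the liver X receptor. Fasn held 3 CCAAT matches, of which a forward and a reverse one overlap, and CCAAT was found in 33.8% of the 32851 promoters of the table. Acly held 4 GGGCGG matches, a motif of 32.7% of promoters. The upstream start of Mlxipl held 1 CCAAT and 2 GGGCGG matches, the motifs seen at Fasn and Acly, and 1 CACGTG match, present in 6.02% of promoters. Its downstream start held TCACNCCAC, present in 1.05%. Acacb held 1 CCAAT and 1 TATAAA match, the latter in 12.4% of promoters. The longer sterol element, found in 0.0731% of promoters, and the liver X receptor element, found in 0.0152%, matched none of these 5 windows. Matches are descriptions of these letters only.

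Acly (ENSMUSG00000020917, chromosome 11, 100476353 to 100528000, minus strand) opens the route. Controls 1 to 3 stood at 108, 135 and 121 CPM, and Cdo1AKO libraries 1 to 3 at 132, 302 and 112 CPM. Cdo1AKO 1 and 3 lay within the control range and Cdo1AKO 2 lay above it, so the groups overlapped. In TPM Cdo1AKO 1 also lay above the controls, at 86.8 against at most 81.6 TPM, and Cdo1AKO 3 (73.3 TPM) lay within their range. Its log2 fold change was 0.58 ± 0.39 (SE, 3 libraries per group; adjusted p = 0.651 by edgeR), and it was 0.0077 without Cdo1AKO 2.

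Acaca (ENSMUSG00000020532, chromosome 11, 84129672 to 84401651, plus strand) encodes acetyl-CoA carboxylase 1, whose malonyl-CoA is the building unit of fatty acid synthesis. It had 414, 305 and 359.7 CPM in controls and 147, 208 and 142 CPM in Cdo1AKO. All 3 Cdo1AKO libraries, Cdo1AKO 2 included, lay below all 3 controls, at 0.461 of the control mean. Its log2 fold change was -1.12 ± 0.22 (SE), with an unadjusted p of 0.00193 and an adjusted p of 0.272 by edgeR. With DESeq2 the adjusted p was 0.00443, and the authors' deposited table lists 0.00420, where 180 genes (0.655%) are lower at an adjusted p under 0.05. Over all alternatives tried, the adjusted p of Acaca ran from 0.00393 to 0.937 and its log2 fold change from -1.31 to -1.01.

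Acacb (ENSMUSG00000042010, chromosome 5, 114146535 to 114250761, plus strand) encodes acetyl-CoA carboxylase 2, whose malonyl-CoA is known to restrain fatty acid entry into mitochondria. It had 1116, 435 and 765 CPM in controls and 280.2, 115 and 254 CPM in Cdo1AKO. The groups did not overlap, and Cdo1AKO 2 was the lowest of all 6 libraries. On the log2 scale the difference was -1.83 ± 0.47 (SE; adjusted p = 0.345 by edgeR), the lowest of the 10 genes. DESeq2 gave an adjusted p of 0.0101 and 0.00961 is listed in the authors' deposited table, and over the alternatives tried the adjusted p ran from 0.0101 to 0.937.

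Fasn (ENSMUSG00000025153, chromosome 11, 120805846 to 120824547, minus strand) encodes the synthase itself. It had 452, 378 and 451 CPM in controls and 324, 2936 and 264 CPM in Cdo1AKO. Cdo1AKO 2 stood at 6.49 times the highest other library, whereas Cdo1AKO 1 and 3 lay below every control, at 0.689 of the control mean. The log2 fold change of 1.46 ± 0.94 (SE; adjusted p = 0.640 by edgeR) had the sign of that 1 library. Without Cdo1AKO 2 it was -0.54 ± 0.14 (adjusted p = 0.112 by edgeR, within a range of 0.0617 to 0.984 over the alternatives tried). DESeq2 gave no adjusted p for Fasn or Scd2, and the authors' deposited table lists no p for either and an adjusted p of 1.

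Elovl6 (ENSMUSG00000041220, chromosome 3, 129532355 to 129638495, plus strand) was the least abundant member, with 98 to 317 counts per library. It had 6.01, 11.1 and 8.95 CPM in controls and 11.05, 20.4 and 9.77 CPM in Cdo1AKO. The groups overlapped at control 2, and Cdo1AKO 2 was highest. Its log2 fold change was 0.66 ± 0.37 (SE; adjusted p = 0.595 by edgeR) and 0.26 without Cdo1AKO 2.

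Both desaturase genes lie in the same stretch of chromosome 19, Scd1 (ENSMUSG00000037071, 44394451 to 44407709, minus strand) and Scd2 (ENSMUSG00000025203, 44293676 to 44306864, plus strand). Scd1 is the main desaturase of fat and liver, and Scd2 is best known from brain. Scd1 had 19551, 15892 and 20729 CPM in controls and 14580, 22989 and 13688 CPM in Cdo1AKO. These groups overlapped widely, and the log2 fold change was -0.13 ± 0.55 (SE; adjusted p = 0.945 by edgeR), or -0.40 without Cdo1AKO 2.
Scd2 had 24.7, 71.0 and 56.6 CPM in controls and 90.7, 747 and 80.4 CPM in Cdo1AKO. All Cdo1AKO libraries exceeded all controls, Cdo1AKO 1 and 3 by little and Cdo1AKO 2 by far. The log2 fold change was 2.59 ± 0.99 (SE; unadjusted p = 0.0376, adjusted p = 0.454 by edgeR). It was 0.75 ± 0.43 without Cdo1AKO 2. The transcripts of both genes share stretches, 145 of the 5461 distinct runs of 50 bases in Scd2 also being in Scd1 (2.66%), so some reads could be assigned to either.

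Srebf1 (ENSMUSG00000020538, chromosome 11, 60199089 to 60222581, minus strand) encodes SREBP-1 and stood at 424, 359 and 407 CPM in controls and 281, 324 and 219 CPM in Cdo1AKO. The groups did not overlap, with Cdo1AKO 2 closest to the controls in CPM and Cdo1AKO 1 closest in TPM (173 TPM, against 150 in Cdo1AKO 2). The log2 fold change was -0.53 ± 0.20 (SE; unadjusted p = 0.0342, adjusted p = 0.441 by edgeR).
Mlxipl (ENSMUSG00000005373, chromosome 5, 135089890 to 135138382, plus strand) encodes ChREBP and stood at 186, 141 and 170.3 CPM in controls and 84.1, 122 and 71.6 CPM in Cdo1AKO. Here too every Cdo1AKO library lay below every control. The log2 fold change was -0.84 ± 0.24 (SE; unadjusted p = 0.0116, adjusted p = 0.362 by edgeR). In the authors' deposited table the adjusted p was 0.343 for Srebf1 and 0.129 for Mlxipl. Exons of Srebf1 share 109 bases with Rai1 on the opposite strand, and those of Mlxipl share 235 bases with the antisense gene Gm43500. No source used here gives a strand setting for the counting, and reads of these stretches cannot be told apart by gene.

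Thrsp (ENSMUSG00000035686, chromosome 7, 97412938 to 97417730, minus strand) stood at 623, 200.03 and 373 CPM in controls and 80.7, 339.9 and 90.3 CPM in Cdo1AKO. Cdo1AKO 1 and 3 lay below every control, and Cdo1AKO 2 lay among the controls. With all libraries the log2 fold change was -1.23 ± 0.69 (SE; adjusted p = 0.591 by edgeR). It was -2.22 without Cdo1AKO 2 and -0.76 without control 1, the highest library.

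**Figure D2:**
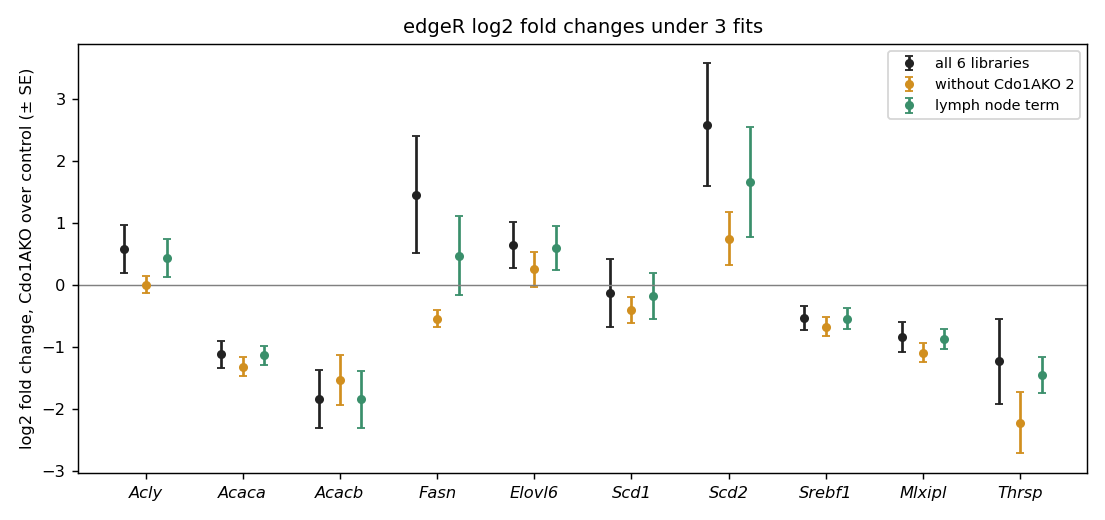
edgeR log2 fold changes of Cdo1AKO over control with SE bars for the 10 genes, from all 6 libraries (black), without Cdo1AKO 2 (orange) and with a lymph node term (green). Acaca, Acacb, Srebf1, Mlxipl and Thrsp lie below 0 in all 3 fits, and Fasn lies above 0 with all libraries (1.46) and below 0 without Cdo1AKO 2 (-0.54).

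Without Cdo1AKO 2, 6 of the 10 genes were lower at an unadjusted p under 0.05 (background 15.5%) and 0 were higher (background 11.8%). None of the 10 passed edgeR after adjustment in that fit, nor did any of the 17255 genes tested (0%). A term that sets the 2 libraries without lymph node transcripts apart from the other 4 was also fitted. Those 2 libraries also had the highest summed adipocyte markers (58476 CPM in control 1 and 58377 CPM in Cdo1AKO 2). With the term edgeR called Acaca (log2 fold change -1.13 ± 0.15, adjusted p = 0.0222), Mlxipl (-0.87 ± 0.16, adjusted p = 0.0373) and Thrsp (-1.45 ± 0.29, adjusted p = 0.0442). These 3 of 10 were lower where 1.87% of all genes were, and 0 of 10 were higher against 2.26%, with 4.13% of all genes called in either direction. Within the 4 libraries that held lymph node transcripts, 2 per group, Acaca, Acacb, Srebf1, Mlxipl and Thrsp were called. These were 5 of 10 lower against a background of 7.70%, and 0 were higher against 7.65%. The Cdo1AKO side of that fit was Cdo1AKO 1 and 3, which differed by only 5.21 times the sampling variance per gene. Controls 2 and 3 differed by 20.9 times. Fasn in those 4 libraries had a log2 fold change of -0.50 ± 0.15 (adjusted p = 0.0617 by edgeR). The 2 libraries without lymph node transcripts are 1 per group and allow no test.

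Ratios within a library do not depend on how libraries are scaled. Their levels depend on the listed gene lengths, but their log2 differences between groups do not. The ratio of Scd1 to Scd2 counts per kilobase was 894, 252 and 413 in controls and 181, 34.7 and 192 in Cdo1AKO. It was lower in each Cdo1AKO library than in each control, by 2.09 on the log2 scale (exact two-sided permutation test, p = 0.1, adjusted p = 0.15 over 3 ratios). Leaving out Cdo1AKO 2 gave a log2 difference of -1.28.
The ratio of Fasn to Acaca was 1.71, 1.93 and 1.95 in controls and 3.43, 22.03 and 2.90 in Cdo1AKO. Each Cdo1AKO library lay above each control, Cdo1AKO 1 and 3 included, with a log2 difference of 1.70 (exact permutation p = 0.1, adjusted p = 0.15) and of 0.76 without Cdo1AKO 2. The ratio of Acaca to Acacb was 0.209, 0.396 and 0.265 in controls and 0.296, 1.02 and 0.315 in Cdo1AKO. These groups overlapped (log2 difference 0.71, exact permutation p = 0.4, adjusted p = 0.4; 0.13 without Cdo1AKO 2). With 3 libraries against 3, the smallest p this test can give is 0.1.

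**Figure D3:**
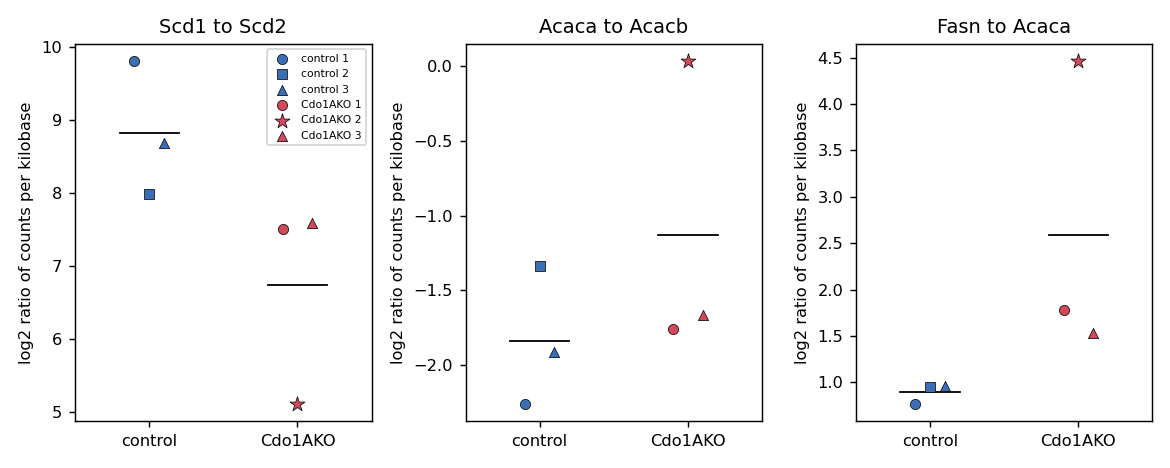
Log2 ratio of counts per kilobase in each library for 3 pairs of genes, with bars at the group means. Scd1 to Scd2 is lower and Fasn to Acaca higher in every Cdo1AKO library than in every control, and Acaca to Acacb overlaps between groups.

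Cdo1AKO 2 was the highest of the 6 libraries for Acly, Fasn, Elovl6, Scd1 and Scd2, 5 of the 10 genes, against 31.7% of all genes tested. For Acly, Fasn and Scd2 it exceeded each other library more than 2 times, 3 of 10 against a background of 3.93%. Scaled by library totals, the highest were 4 of 10 (background 20.5%), since control 3 passed it for Scd1, and 2 of 10 exceeded 2 times (background 2.24%), since Acly stood at 1.77 times the next library. The enzymes that supply acetyl-CoA and NADPH showed the same library on top. Of 12 such genes 10 were highest in Cdo1AKO 2, and 5 exceeded each other library more than 2 times (10 and 4 by library totals). The mitochondrial citrate carrier Slc25a1 had 238, 160 and 198 CPM in controls and 110, 710.2 and 99.7 CPM in Cdo1AKO. Malic enzyme Me1, a source of NADPH, had 275, 219 and 258 CPM against 125, 689 and 113 CPM. The pentose phosphate dehydrogenase Pgd had 177, 202 and 186 CPM against 177, 661 and 183 CPM. Slc25a1, Me1 and Pgd were chosen for mention after their values were seen. In Cdo1AKO 1 and 3 Slc25a1 and Me1 lay below all controls, as Fasn did.

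**Figure D4:**
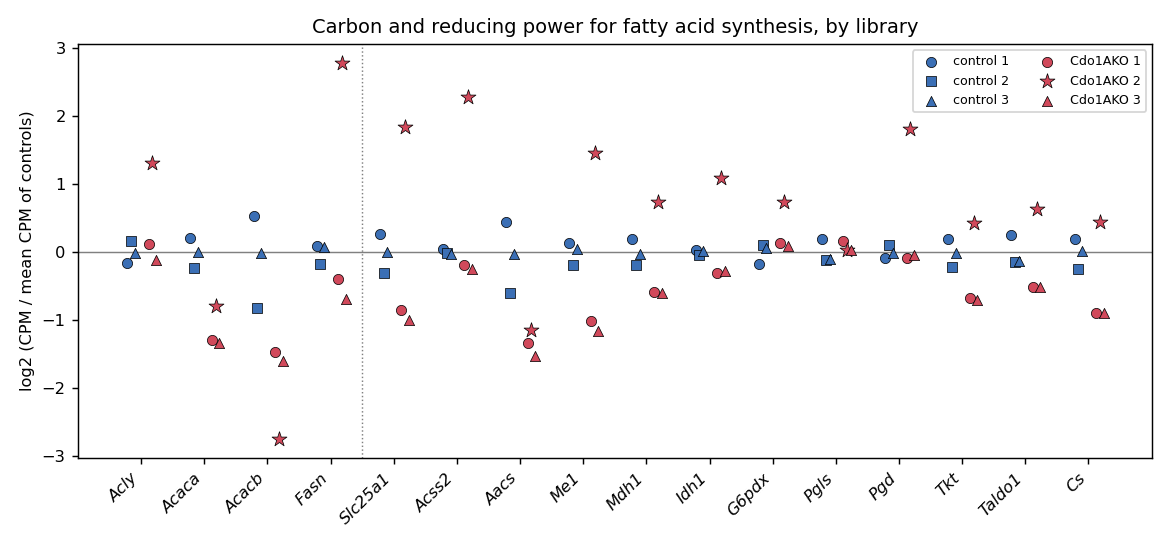
Log2 of CPM over the control mean for Acly, Acaca, Acacb and Fasn (left of the dotted line) and for 12 genes of acetyl-CoA and NADPH supply, by library. Cdo1AKO 2 (star) is on top for 10 of the 12 supply genes, while Cdo1AKO 1 and 3 lie below 0 for most, and Aacs, Acaca and Acacb are below 0 in all Cdo1AKO libraries.

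By group this supply list had 0 of 12 genes that passed edgeR after adjustment, and at an unadjusted p under 0.05 there was 1 lower and 0 higher (background 5.71% and 4.66%). Its median log2 fold change was 0.19, and -0.55 without Cdo1AKO 2, when 8 of 12 were lower at an unadjusted p under 0.05 (background 15.5%). The gene with the smallest p was Aacs, the cytosolic acetoacetyl-CoA synthetase that feeds ketone bodies into lipid synthesis. It had 496, 242 and 360.4 CPM in controls and 145, 165 and 128 CPM in Cdo1AKO (log2 fold change -1.33 ± 0.29, adjusted p = 0.311 by edgeR). It was called by DESeq2 (adjusted p = 0.00728), by edgeR with the lymph node term (0.0301) and within the 4 libraries with lymph node transcripts (0.0118), in a range of 0.00728 to 0.937 over the alternatives. Acss2, which makes acetyl-CoA from acetate, had 1.13 ± 0.71 and -0.21 without Cdo1AKO 2. The first NADPH-producing dehydrogenase of the pentose phosphate route, G6pdx, had 0.35 ± 0.22, and 0.12 without Cdo1AKO 2.

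Among 17 other elongase, desaturase and chain-elongation genes 12 were tested and 0 passed edgeR after adjustment. The median log2 fold change was 0.16, with 1 gene lower and 0 higher at an unadjusted p under 0.05 (background 5.71% and 4.66%). Fads1, the delta-5 desaturase of polyunsaturated fatty acids, had 107, 49.6 and 82.6 CPM in controls and 42.5, 33.2 and 38.9 CPM in Cdo1AKO (log2 fold change -1.06 ± 0.29). Elovl5 (0.36 ± 0.15; 0.24 without Cdo1AKO 2) and Elovl1 (0.30 ± 0.18; 0.11 without Cdo1AKO 2) were higher in every Cdo1AKO library. Elovl3, known from brown fat and skin, had at most 1.74 CPM.

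The genes that control SREBP and liver X receptor signalling were mixed, with 5 positive and 7 negative of 12 tested, a median of -0.044 and 0 past the adjusted threshold. Here 1 was lower and 0 higher at an unadjusted p under 0.05 (background 5.71% and 4.66%). Nr1h3, which encodes the liver X receptor alpha that induces Srebf1, had 197, 122 and 152 CPM in controls and 92.1, 127 and 84.4 CPM in Cdo1AKO (log2 fold change -0.63 ± 0.24). Its groups overlapped through Cdo1AKO 2. Lpin1, a phosphatidate phosphatase that also restrains SREBP, had -1.22 ± 0.51 (-0.74 without control 1), and the partner receptor Rxra had -0.45 ± 0.26 (-0.25 without control 1). Insig1, a sterol-regulated SREBP target, had 98.4, 104 and 98.2 CPM in controls and 61.9, 305 and 65.6 CPM in Cdo1AKO, the pattern of Fasn. It was chosen for mention after its values were seen.

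Sterol genes driven by the related factor SREBP-2 leaned the other way. Of 13 tested, 12 had a positive log2 fold change with a median of 0.87, or 0.35 without Cdo1AKO 2. At an unadjusted p under 0.05, 3 were higher and 1 lower (background 4.66% and 5.71%). After adjustment 0 passed, and with the lymph node term 1 did, Mvd. Much of the lean rested on Cdo1AKO 2, the highest library for 8 of the 13 (background 31.7%). For 6 of the 13 it exceeded each other library more than 2 times (background 3.93%). Without Cdo1AKO 2, 2 were higher and 1 lower at an unadjusted p under 0.05 (background 11.8% and 15.5%). Mvd of the mevalonate route had 5.09, 11.9 and 10.4 CPM in controls and 19.2, 17.5 and 20.1 CPM in Cdo1AKO (log2 fold change 1.05 ± 0.33), so Cdo1AKO 2 was not the highest there. Its adjusted p by edgeR was 0.384, and 0.0452 with the lymph node term, in a range of 0.0158 to 0.937 over the alternatives. In the other direction the squalene synthase gene Fdft1 had -0.76 ± 0.22.

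Partners and targets of ChREBP had 0 of 10 tested genes at an unadjusted p under 0.05 (background 4.66% higher and 5.71% lower) and a median of -0.12. Arrdc4 and Txnip, both glucose-responsive arrestin-family genes, differed in sign at 0.50 ± 0.23 and -0.65 ± 0.31. Arrdc4 was 0.28 without control 1. Fgf21 had 0.324 to 1.74 CPM over the 6 libraries (log2 fold change 0.93 ± 0.52; 0.56 without control 2).
Among 11 genes that act on the carboxylases, 2 were lower and 0 higher at an unadjusted p under 0.05 (background 5.71% and 4.66%), with 0 past the adjusted threshold. Both were of the AMP-activated kinase pathway, which phosphorylates and switches off acetyl-CoA carboxylase. They were the catalytic subunit gene Prkaa1 at 84.3, 72.9 and 80.0 CPM in controls and 60.9, 58.5 and 59.9 CPM in Cdo1AKO (-0.40 ± 0.12), and its upstream kinase Stk11 (-0.37 ± 0.15). The other catalytic subunit, Prkaa2, had -0.79 ± 0.35 (-1.19 without Cdo1AKO 2).

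Of 13 genes listed under insulin and glucose input, 6 were lower and 1 higher at an unadjusted p under 0.05 (background 5.71% and 4.66%). The list also holds the thyroid hormone receptor gene Thrb, which is 1 of those 6. After adjustment 0 passed edgeR with group only, and 4 lower and 1 higher passed with the lymph node term (background 1.87% and 2.26%). The median was -0.56. Irs1, the insulin receptor substrate, had 33.7, 34.9 and 36.5 CPM in controls and 15.996, 18.7 and 15.9 CPM in Cdo1AKO (log2 fold change -1.06 ± 0.14, adjusted p = 0.230 by edgeR). The insulin receptor gene Insr had -0.93 ± 0.20. Thrb, the thyroid hormone receptor beta, had 63.6, 49.4 and 56.8 CPM against 21.9, 33.4 and 21.3 CPM (-1.15 ± 0.22). All 3 were called by DESeq2, with the lymph node term and within the 4 libraries: over the alternatives the adjusted p ran from 7.91e-05 to 0.937 for Irs1, 0.0190 to 0.937 for Insr and 0.00345 to 0.937 for Thrb. For 0 of these 13 genes was Cdo1AKO 2 the highest library, against 31.7% of all genes tested.

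Likeness between genes was measured as the root mean square difference of log2 CPM over the 6 libraries after centring each gene on its own mean. Among 11739 other genes with a mean of at least 5 CPM, those nearest to Acaca were Thrb (0.0413), Gpam (0.0704), Nnat (0.0726) and Klhl2 (0.0894). Gpam encodes an acyltransferase that begins triglyceride synthesis. Those nearest to Fasn were 2010003K11Rik (0.165), Trabd2b (0.201), Pnpla3 (0.211) and Bcat1 (0.224). Pnpla3, a lipid droplet hydrolase gene, had 98.7, 84.2 and 95.9 CPM in controls and 77.5, 496 and 72.3 CPM in Cdo1AKO. Among the 10 genes themselves the most alike pair was Acaca and Mlxipl (0.149), and the least alike was Acacb and Scd2 (2.51).

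Markers of cell types moved with some of these values. The summed level of the 10 adipocyte markers was 58476, 38428 and 45224 CPM in controls 1 to 3. It was 23494, 58377 and 25543 CPM in Cdo1AKO 1 to 3. Control 1 and Cdo1AKO 2, the 2 libraries without lymph node transcripts, were the highest. Within the Cdo1AKO group every lipogenesis gene except Acacb was also highest in Cdo1AKO 2 by CPM. In bulk tissue fewer adipocytes and less RNA per adipocyte cannot be told apart. Of 10 adipocyte markers 8 had a negative log2 fold change, with a median of -0.43. Without Cdo1AKO 2 the adipocyte median was -0.78, with 8 of 10 lower at an unadjusted p under 0.05 (background 15.5%). The lipogenesis genes had -0.60 and 6 of 10 in that fit. Brown and beige adipocyte markers summed to 148 to 231 CPM in controls and 56.5 to 129.5 CPM in Cdo1AKO. Their median was -1.18 over 7 tested, and 4 were lower without overlap (background 9.73%). The summed level of 10 progenitor and stromal markers was 1498 to 2007 CPM in controls. In Cdo1AKO 1 to 3 it was 1917, 4860 and 1829 CPM. That of 8 immediate early genes was 227 to 261 CPM in controls, 248 and 298 CPM in Cdo1AKO 3 and 1, and 715 CPM in Cdo1AKO 2. The 6 endothelial markers were all highest in Cdo1AKO 2 (background 31.7%). They summed to 1719.5 CPM there, against 736 to 1005 CPM for the rest. All 8 macrophage markers had a positive log2 fold change, with a median of 0.54. Of 10 Schwann cell markers 9 were tested, with a median of -1.27. Of these, 6 were lower in every Cdo1AKO library than in every control (background 9.73%). The 8 T cell markers summed to 11.2, 337 and 197 CPM over the controls and to 839, 13.6 and 865 CPM over the Cdo1AKO libraries, in order of number. The part of these cells in the lipogenic values was not tested. Mammary epithelium, a lipogenic tissue that can lie in this fat pad, was near absent by its markers: 12 genes summed to 0.772 CPM in Cdo1AKO 2, with a range of 2.89 to 5.60 CPM elsewhere. Skin and sebaceous markers summed to 61.2 CPM in Cdo1AKO 2, above a range of 7.06 to 12.7 CPM for the rest. Mogat2 and Krt79 made up most of this, Krt1 and Flg stood at 0 in all libraries, and Awat1 was at 0 in all but Cdo1AKO 2.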

How the data were processed

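The authors deposited 1 table of counts per gene for 6 libraries, with FPKM values and their own comparison (log2 fold change, p-value and adjusted p-value) per the file headers. The submitters' processing notes name mm10 as build and, as tools with no stated roles, DESeq2 1.20.0, featureCounts 1.5.0-p3 and HISAT2 2.0.5. Titles gave groups and numbers; WT columns were matched to control titles by the genotype label. FPKM per the file headers served only as an alternative for ratios.

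Counts were filtered with filterByExpr, scaled with TMM and tested with edgeR 4.0.16 (quasi-likelihood, group only) in R 4.3.3, with Benjamini-Hochberg adjustment over all genes tested. The fit was also run on simulated counts with planted changes, and how many of these it recovered is not reported here. Alternatives used DESeq2 1.42.0, limma 3.58.1, other scalings and filters, a replicate block, each library left out, and a term marking libraries whose median lymph node marker exceeds 5 CPM. Members, lists and tests were chosen with earlier results of these data known. Named genes were the 10 members, Cdo1, the 3 tested genes of smallest p in each pathway list, and the 4 genes nearest Fasn and Acaca (log2 of CPM plus 0.5); 1 gene that this rule names is not reported here. Other genes named, marker genes and Elovl3 among them, were chosen after their values were seen. Promoters are from RefSeq, GRCm38.p6, and exon overlaps and shared runs of bases from GENCODE M21.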

Additional observations from a re-analysis of the deposited data

How the results depend on the processing

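Over all genes, edgeR called 0 with group only and 0 under the other scalings and filters, the robust fit, limma-voom, the replicate block and each library left out (0 to 0). DESeq2 called 271, the lymph node term 686 and the fit within the 4 libraries with lymph node transcripts 2617. Of the 10 lipogenesis genes these 3 settings called 2, 3 and 5, all lower, and the other settings 0, as did each library left out (0 to 0). Signs turned for 4 genes. Within the 4 libraries the log2 fold change was -0.073 for Acly, -0.50 for Fasn and -0.20 for Acss2, and with each library left out it ran from -0.54 to 1.94 for Fasn, from -0.40 to 0.0069 for Scd1 and from -0.21 to 1.52 for Acss2. The cause was not tested. The 3 ratios kept their sign under every alternative. With each library left out their log2 differences ran from -2.51 to -1.28 (Scd1 to Scd2), 0.13 to 1.02 (Acaca to Acacb) and 0.76 to 2.22 (Fasn to Acaca).

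The replicate numbers are shared by the groups but nothing says that they pair libraries. Deviations from the group means correlated at -0.66, -0.66 and 0.42 for numbers 1 to 3, across genes. With the replicate block 0 genes and 0 of the 10 were called by edgeR, and the ratios had p = 0.25 by exact sign flips, the smallest that test allows. Without a library a group has 2 left, assumed to vary like the other group.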
